A study of Homo sapiens with 6 samples.

Results

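The Rab GTPase genes are described here in cells exposed to cationic liposomes (CLs) and in control cells. They were taken as every row of the count file whose symbol is RAB, a number and at most 1 capital letter, with the pseudogene RAB1C, interactors and antisense genes left out. This gave 60 genes of the 40205 in the file, of which 46 had enough reads to be tested. The control group (Control-1 to Control-3) was not given CLs, and the CLs-treated group (CLs-1 to CLs-3) was given CLs for 24 h. CLs are vesicles of the cationic lipid DOTAP, cholesterol and a PEG-linked phospholipid. The dose in the sample labels is 120 μM, whereas the unit differs elsewhere in the study's text (μg/ml). All samples are labelled HepG2, a human hepatoma line, and nothing in the labels says whether the 3 samples of a group were separate cultures, so the p-values measure only the spread between these samples. Values of a group are given in the order of its replicate numbers.

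Rab proteins are small GTPases that give each membrane compartment its identity. Bound to GTP, and held on the membrane by prenyl groups on cysteines near the C-terminus, a Rab protein recruits tethers, motors and other effectors. Guanine nucleotide exchange factors (GEFs) switch it on, GTPase-activating proteins (GAPs) switch it off, and GDP dissociation inhibitors (GDIs) carry the inactive form through the cytosol. RAB5 proteins act on early endosomes, RAB7A on late endosomes and lysosomes, RAB4 and RAB11 proteins on recycling endosomes, RAB1 and RAB2 proteins between the endoplasmic reticulum and the Golgi, and RAB3 and RAB27 proteins on secretory granules. Liposomes that enter cells by endocytosis pass through compartments marked by several of these proteins.

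Each sample had from 11418527 to 13998946 counts over all genes. The liver markers were near 0: of 19 hepatocyte and HepG2 markers, 15 had at most 3 counts in each control sample, and ALB, APOB, APOC3, APOH, TTR, FGA, FGB, FGG and RBP4 had 0 in all control samples. Their summed counts were 5, 25 and 22 in the control samples and 185, 4 and 5 in the CLs-treated samples. The cells are therefore called here by their label only. CLs-1 stood apart: 35 genes reached 30 counts or more in CLs-1 alone, at over 8 times the level of any other sample, against 1 such gene in Control-3 and 0 in the other samples, and no Rab gene was among them. Summed counts were 555 in CLs-1 and 11 to 32 elsewhere for 8 adrenal markers, and 487 against 6 to 9 for 9 blood cell markers. For 10 fibroblast markers they were 28475 in CLs-1 and 20721 to 24010 elsewhere. CLs-1 also had the largest total over all genes (13998946 counts), so this sum alone does not set it apart. COL3A1 and VIM made up most of the fibroblast sum in every sample. All 10 of these markers had over 3 counts in CLs-1, whereas 4 did in CLs-2 or CLs-3. COL1A2 had 0, 2 and 1 counts in the control samples and 1044, 0 and 0 in the CLs-treated samples. The sum for 6 epithelial markers was 66446 to 74361 in the control samples and 32738 to 40396 in the CLs-treated samples. KRT7, KRT8 and KRT18 made up almost all of this sum. EPCAM and CDH1 had at most 3 counts in each control sample. KRT19 was highest in CLs-1, at 61 counts against 3, 9 and 19 in the control samples. The part of these markers in the Rab values was not tested. Several counts over the members, and the log2 fold changes of several members, are given with and without CLs-1.

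The members share coding sequence features of the Rab family. Rows were picked by a family symbol, so the counts below describe the family and are not an independent result. In the longest coding transcript of GENCODE v29, 49 of the 60 members hold an unbroken run of 7 codons for the switch II box, which carries the catalytic glutamine. The box has 42 different spellings among them. It is shown for 4 sets of members because close relatives differ in base composition, along which the members separated in CLs-1. Capitals mark G or C at the wobble position, the last base of a codon.
RAB5A: tgGgatacagctggtcaagaa
RAB5B: tgGgaCacagctggGcaGgaG
RAB5C: tgGgaCacagctggacaGgaG
RAB11A: tgGgaCacagcaggGcaagaG
RAB11B: tgGgaCacCgctggCcaGgaG
RAB1A: tgGgaCacagcaggCcaGgaa
RAB1B: tgGgaCacagcGggCcaGgaa
RAB30: tgGgaCacagcaggtcaagaG
RAB27B: tgGgaCactgcGggacaagaG
RAB43: tgGgaCacGgcCggCcaGgaG
RAB5A has G or C at 1 of the 7 wobble positions and RAB43 at 7. The search allowed only the codon tgg first, so the G there is the same in every box. Over the whole coding sequence, G or C fills 30.2% of wobble positions in RAB5A, 57.7% in RAB5B and 64.7% in RAB5C. The contrast is wider for RAB11A (35.7%) and RAB11B (88.1%).

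The coding ends differ in the cysteine codons that receive the prenyl groups. Among the last 5 codons of the longest coding transcript, 47 members have 2 cysteine codons, 11 have 1, and 2 have none (RAB34 and RAB6C). Other transcripts of these genes, which may end differently, were not examined. The last 30 coding bases are shown for RAB30 and RAB43, which had the smallest p-values, for the early endosome member RAB5A and for RAB8A, a member with a lone cysteine codon, with cysteine codons in capitals.
RAB30: atcagctatttgactTGTTGTaatttcaac
RAB43: gacatcggagaaggctggggcTGCgggTGC
RAB5A: caaccaaccaggaatcagTGTTGTagtaac
RAB8A: aggagcagctttttccgaTGTgttcttctg
The pair of cysteine codons is adjacent in RAB30 and RAB5A and split by another codon in RAB43.

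The 60 genes summed to 2356, 2291 and 2246 CPM of all counts in the control samples and to 2506, 2398 and 2325 CPM in the CLs-treated samples. CPM expresses a count relative to the sample's total, and these sums are 0.225% to 0.251% of it. The means were 2298 ± 55.3 and 2410 ± 90.9 (SD, n = 3), and the groups overlapped. Levels of different genes were compared as CPM, from here on scaled by TMM, per kilobase of annotated exon. On this scale the control group was led by RAB5C at 114.7 ± 14.4 and RAB7A at 98.8 ± 10.8, whose SDs overlap. RAB34, a regulator of lysosome position and cilia, followed at 88.0 ± 11.1 and RAB1B at 77.7 ± 2.94. RAB8A, which acts on exocytic carriers and in cilia, and RAB1A were next and did not differ beyond their spread, at 49.25 ± 5.65 and 48.8 ± 4.54. The SDs of RAB7A and RAB34, both of the late endosome list, overlap as well. All genes were measured in the same samples, so overlap of these SDs does not decide their order. At the low end were RAB27B at 0.465 and RAB36 at 0.203 CPM per kilobase.

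**Figure D1:**
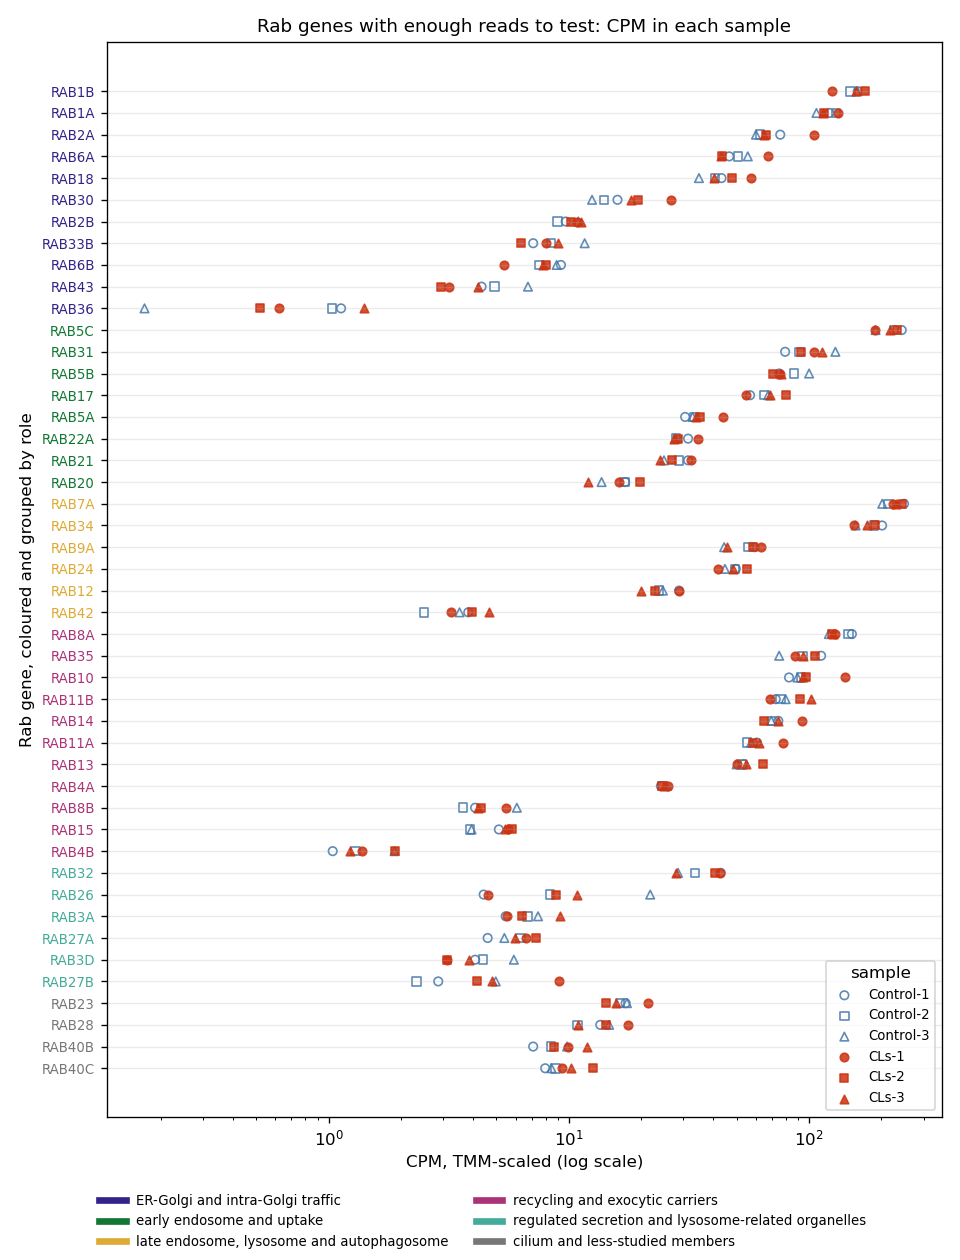
CPM (horizontal axis, log scale) of the 46 tested Rab genes (vertical axis), coloured and grouped by role, with open blue symbols for the control samples and filled red symbols for the CLs-treated samples. For most genes the symbols of the groups are mixed, while CLs-1 (filled circle) lies to the right in RAB2A, RAB6A, RAB10 and RAB27B.

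Of the members, 14 had too few reads to be tested. RAB19, RAB39A, RAB41 and RAB44 had 0 counts in all 6 samples, which allows up to 3 counts, or 0.214 to 0.263 CPM. RAB3C, RAB9B, RAB25, RAB37, RAB38, RAB39B and RAB40A had at most 2 counts in any sample, and RAB33A at most 5. RAB38, which serves melanosomes and other lysosome-related organelles, had 2 counts in CLs-1 and 0 elsewhere. The neuronal and endocrine member RAB3B varied within groups, with 29, 1 and 7 counts in the control samples and 32, 9 and 4 in the CLs-treated samples. RAB6C had 4, 5 and 5 counts and 12, 5 and 6 counts, and 16.9% of its 50-base stretches also occur in RAB6A, so its reads cannot be told apart fully. RAB7B was not analysed here. Of the 46 tested genes, 45 were over the filter level in all 6 samples, and RAB36 was over it in 3.

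No Rab gene passed the study's thresholds of a fold change above 1.5 or below 0.67 and an adjusted p-value under 0.05, applied here to edgeR's quasi-likelihood test (Benjamini-Hochberg adjustment over all tested genes), whereas the study used EBSeq. Among all 15047 tested genes 0.0864% passed them (0.0133% higher and 0.0731% lower), so a count of 0 among 46 is near the background. DESeq2 also called 0 members. At an unadjusted p under 0.05, RAB30 and RAB27B were higher and RAB43 was lower in the CLs-treated group. These are 4.35% and 2.17% of the members, against 2.19% and 3.62% of all genes (5.81% in either direction). The smallest adjusted p-value over the members was 0.500.

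The sizes of the differences were small. Over the members the log2 fold change had a median of 0.07, and over all tested genes of 0.01. Of the 46 members, 29 lay within 0.2 of 0. The median absolute log2 fold change was 0.117 over the members and 0.140 over all tested genes. For 26 members (56.5%) the 95% interval stayed within a 1.5-fold difference either way, as it did for 49.1% of all genes. Intervals tend to be wider for genes with few reads. The share of all genes within a 1.5-fold difference, here and below, was not matched for read depth. By sign, 34 members (73.9%) were higher in the CLs-treated group, against 52.1% of all genes. Without CLs-1, 25 members (54.3%) were higher, against 50.4% of all genes. The samples of the groups did not overlap for 7 members. RAB10, RAB15, RAB30, RAB40C and RAB5A were above the controls in every CLs-treated sample (10.9% of members, 5.34% of all genes), and RAB43 and RAB3D were below (4.35% and 6.18%). Without CLs-1, 9 members were above and 5 were below the controls in each remaining CLs-treated sample, where 13.7% and 13.6% of all genes were. In the same fit 0 members passed the criteria (0.0261% of all genes). The members then at an unadjusted p under 0.05 were RAB30, RAB40C and RAB11B, all higher, where 3.55% of all genes were higher and 5.47% lower.

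**Figure D2:**
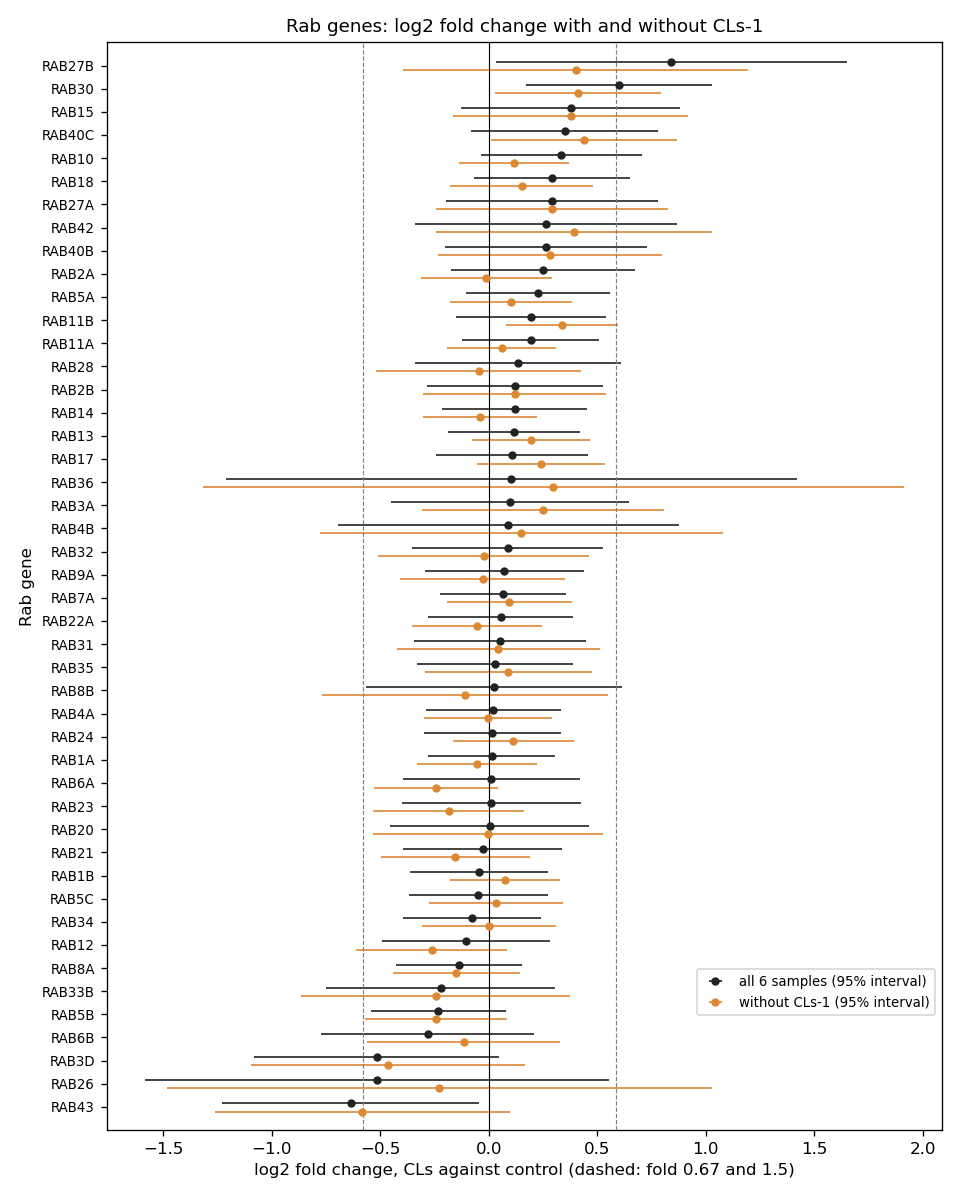
Log2 fold change of the CLs-treated against the control group (horizontal axis) for each tested Rab gene (vertical axis), with all 6 samples in black and without CLs-1 in orange. Points are estimates, bars are 95% intervals and dashed lines mark folds of 0.67 and 1.5. Of the 46 estimates, 29 lie within 0.2 of 0, and only RAB27B, RAB30 and RAB43 have black bars clear of 0.

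Among the members of ER-Golgi and intra-Golgi traffic, 11 of 14 were tested and their median log2 fold change was 0.01. RAB30, a Golgi-associated member, was at 15.9, 14.0 and 12.5 CPM in the control samples and 26.7, 19.5 and 18.2 CPM in the CLs-treated samples. Every CLs-treated sample was above every control sample, with CLs-1 the highest. The log2 fold change was 0.60 ± 0.19 (SE, 95% interval 0.17 to 1.03, adjusted p = 0.500). Without CLs-1 it was 0.41 (adjusted p = 0.528, range 0.207 to 1.000 over the alternatives run). RAB30-AS1, annotated antisense to RAB30, was at 7.02, 6.90 and 7.28 CPM and at 9.19, 8.37 and 7.96 CPM (log2 fold change 0.27, adjusted p = 0.969). The strand setting of the counting is not given in the sources used here, so reads of this pair cannot be told apart.

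RAB43, which acts between the endoplasmic reticulum and the Golgi, had the most negative log2 fold change of the tested members. It was at 4.33, 4.91 and 6.76 CPM in the control samples, from 50, 57 and 79 counts, and at 3.18, 2.93 and 4.20 CPM in the CLs-treated samples, from 46, 34 and 48 counts. The groups did not overlap, but the gap between CLs-3 and Control-1 was narrow. The log2 fold change was -0.64 (SE 0.27, adjusted p = 0.801), and without CLs-1 it was -0.58 (95% interval -1.26 to 0.10). The related row RAB43P1 shares 91.7% of its 50-base stretches with RAB43 and had a log2 fold change of -0.60 (adjusted p = 0.713). The division of reads between these rows is therefore uncertain.

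The widely used ER-Golgi members showed little difference. RAB1A was at 121.7, 129.3 and 107.4 CPM in the control samples and 131.8, 116.0 and 114.1 CPM in the CLs-treated samples. These values are mixed, and the log2 fold change of 0.01 had a 95% interval of -0.28 to 0.31. RAB1B had a log2 fold change of -0.05, and of 0.08 without CLs-1. RAB2A was at 75.9, 62.7 and 60.2 CPM and at 104.6, 66.4 and 65.1 CPM. Its log2 fold change of 0.25 rested on CLs-1 and was -0.01 without it. RAB6A, which acts in transport at the Golgi, went from 0.01 to -0.24 (95% interval -0.53 to 0.04) when CLs-1 was left out. RAB18, a member of the endoplasmic reticulum and lipid droplets, had a log2 fold change of 0.29 (adjusted p = 0.920) and of 0.15 without CLs-1.

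**Figure D3:**
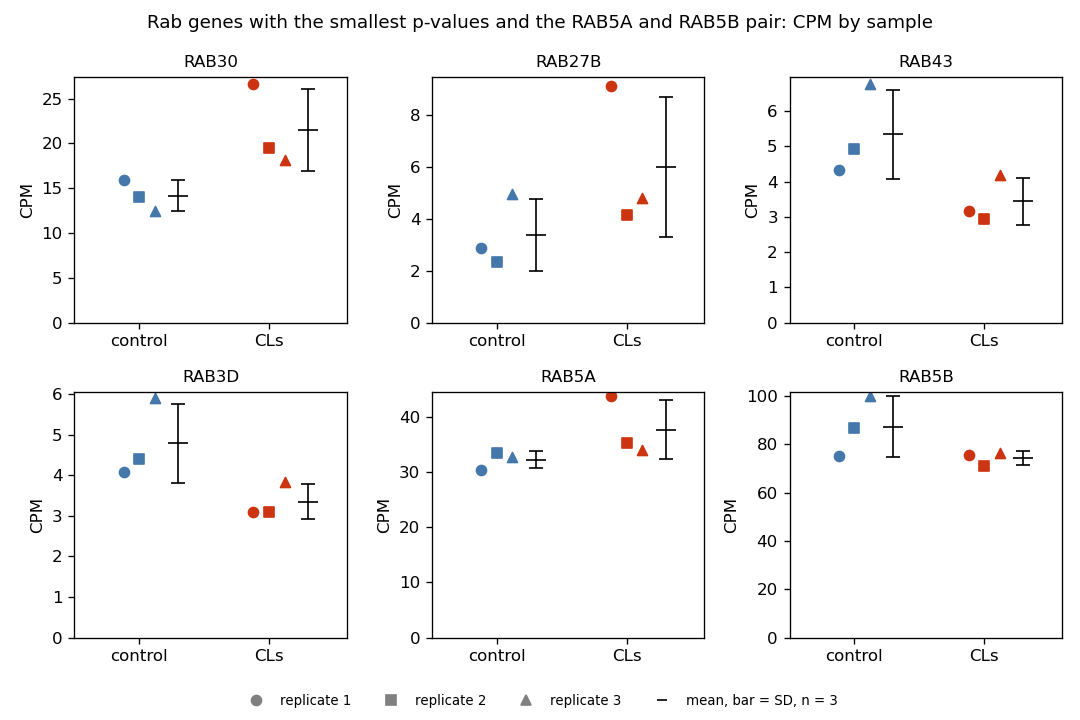
CPM (vertical axes, from 0) of RAB30, RAB27B, RAB43, RAB3D, RAB5A and RAB5B in each sample of the control and CLs-treated groups (horizontal axes). Points are samples and bars are the mean ± SD (n = 3). RAB30, RAB43, RAB3D and RAB5A do not overlap between groups, and CLs-1 is the highest sample in RAB30, RAB27B and RAB5A.

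All 8 early endosome and uptake members were tested. For each the 95% interval lay within a 1.5-fold difference, as it did for 49.1% of all genes, which were not matched for read depth. Their log2 fold changes ran from -0.23 to 0.23. RAB5A was at 30.5, 33.4 and 32.8 CPM in the control samples and 43.9, 35.3 and 34.0 CPM in the CLs-treated samples. The groups were separate but CLs-3 was close to Control-2, and the log2 fold change of 0.23 (95% interval -0.10 to 0.56) was 0.10 without CLs-1. RAB5B was at 75.2, 86.7 and 100.1 CPM and at 75.5, 71.0 and 76.6 CPM. Control-1 lay within the CLs-treated range, and the log2 fold change was -0.23 (95% interval -0.54 to 0.08). RAB5C, the most abundant of the family per kilobase, was at 219.5 ± 27.6 and 212.5 ± 23.0 CPM (SD, n = 3), with a log2 fold change of -0.05. RAB21, which takes part in integrin endocytosis, was at -0.03, and RAB22A, an early endosome member, at 0.06.

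The ratio of RAB5A to RAB5B counts was 0.406, 0.386 and 0.327 in the control samples and 0.581, 0.497 and 0.444 in the CLs-treated samples. The groups did not overlap, and CLs-1 was the highest. An exact two-sided permutation test gave p = 0.10, the smallest that 3 samples against 3 allow, and 0.6 after adjustment over the 12 ratios of related members computed. This ratio was chosen after its values were seen. RAB5A has the lower transcript GC content (42.0% against 46.3%). The ratio of RAB3A to RAB3D also did not overlap, at 1.34, 1.53 and 1.26 in the control samples and 1.78, 2.06 and 2.39 in the CLs-treated samples, with the same exact p = 0.10 and adjusted p = 0.6. The ratio of RAB11A to RAB11B overlapped, with CLs-1 above and CLs-2 and CLs-3 below all control samples (1.13, 0.643 and 0.607 against 0.718 to 0.836).

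Among the late endosome, lysosome and autophagosome members, 6 of 9 were tested. Of these, 5 had 95% intervals within a 1.5-fold difference, where 49.1% of all genes, not matched for read depth, did. RAB7A was at 248.8, 214.7 and 201.8 CPM in the control samples and 223.7, 244.1 and 229.5 CPM in the CLs-treated samples. All CLs-treated samples lay within the control range, and the log2 fold change was 0.07 (95% interval -0.22 to 0.36). RAB9A, which returns receptors from late endosomes to the Golgi, also had a log2 fold change of 0.07. RAB34 was at 201.6, 186.4 and 156.5 CPM and at 153.3, 189.2 and 174.0 CPM, with a log2 fold change of -0.08.

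Of the recycling and exocytic members, 11 of 12 were tested, 10 of them higher by sign, where 52.1% of all genes were, and the median log2 fold change was 0.11. Without CLs-1, 7 of the 11 were higher and the median was 0.09. RAB10, which acts in exocytic and recycling transport, was at 82.6, 92.5 and 89.5 CPM in the control samples and 142, 97.1 and 94.4 CPM in the CLs-treated samples. CLs-1 was far above the other samples, and the log2 fold change was 0.33 (95% interval -0.04 to 0.70) with CLs-1 and 0.12 without it. RAB15, a member of early and recycling endosomes, was at 5.11, 3.88 and 3.94 CPM and at 5.60, 5.78 and 5.42 CPM (log2 fold change 0.38, adjusted p = 0.939). Its CLs-treated samples lay close together, above Control-1.

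RAB11A and RAB11B lay on opposite sides of the other CLs-treated samples in CLs-1. RAB11A was at 60.8, 55.2 and 57.4 CPM in the control samples and 77.6, 58.8 and 61.7 CPM in the CLs-treated samples. RAB11B was at 72.7, 76.0 and 79.9 CPM and at 69.0, 91.4 and 101.5 CPM. Both had a log2 fold change of 0.19. Without CLs-1 that of RAB11A was 0.06, and that of RAB11B was 0.34 (95% interval 0.08 to 0.60, adjusted p = 0.445, range 0.445 to 1.000 over the alternatives run). RAB4A, which returns cargo rapidly from early endosomes, was at 24.8 ± 0.729 and 25.1 ± 0.764 CPM (SD, n = 3), with a log2 fold change of 0.02 (95% interval -0.29 to 0.33). RAB8A was at -0.14, and RAB14, which acts between endosomes and the Golgi, at 0.12.

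Of the regulated secretion members, 6 of 11 were tested, with a median log2 fold change of 0.09. RAB27B, which docks secretory granules and multivesicular bodies at the plasma membrane, had 33, 27 and 58 counts in the control samples and 132, 48 and 55 in the CLs-treated samples. In CPM these were 2.86, 2.33 and 4.96, and 9.12, 4.14 and 4.81. Control-3 was above CLs-2 and CLs-3, so the groups overlapped. The log2 fold change was 0.84 (SE 0.37, 95% interval 0.03 to 1.65, adjusted p = 0.832), the highest of the tested members. Without CLs-1 it was 0.40 (95% interval -0.39 to 1.20). RAB27A, its close relative, had a log2 fold change of 0.29 with and without CLs-1.

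RAB3D, a member of secretory granules in exocrine cells, was at 4.07, 4.40 and 5.91 CPM in the control samples and 3.11, 3.11 and 3.85 CPM in the CLs-treated samples. Every CLs-treated sample was below the controls, and the log2 fold change was -0.52 (95% interval -1.08 to 0.05, adjusted p = 0.888). RAB26, another secretory granule member, shows how wide the spread could be: the control samples were at 4.42, 8.36 and 21.8 CPM, and the 95% interval of its log2 fold change ran from -1.59 to 0.55. The estimate for RAB26 was -0.52, and -0.23 without CLs-1. RAB32, of mitochondria and lysosome-related organelles, had a log2 fold change of 0.09. Among the cilium and less-studied members, RAB40C, which belongs to a ubiquitin ligase, was at 7.97, 8.79 and 8.47 CPM and at 9.40, 12.6 and 10.2 CPM. Its groups did not overlap, with a log2 fold change of 0.35 (adjusted p = 0.921) and of 0.44 without CLs-1 (95% interval 0.01 to 0.87).

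The members' levels in CLs-1 differed from those in CLs-2 and CLs-3 along the GC content of their transcripts. Pearson's r between transcript GC content and the log2 ratio of CLs-1 to the mean of CLs-2 and CLs-3 was -0.804 over the 46 tested members (Spearman's rho -0.814). Over all tested genes with a transcript it was -0.473 (13711 genes). These are correlations across genes of shared libraries, and genes are not independent replicates. Of the 23 members with the lower GC content (35.9% to 46.3%), CLs-1 was the higher for 22, with a median log2 ratio of 0.36. Of the 23 with the higher content (47.5% to 64.4%), it was the higher for 3, with a median of -0.25. Within the control group the same correlation was -0.09, 0.05 and -0.02 for the samples in replicate order. The log2 ratio was 0.67 for RAB2A, 0.65 for RAB6A and 0.57 for RAB10, all under 42% GC, and -0.48 for RAB11B at 63.5% GC and -0.40 for RAB1B at 61.1%.

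**Figure D4:**
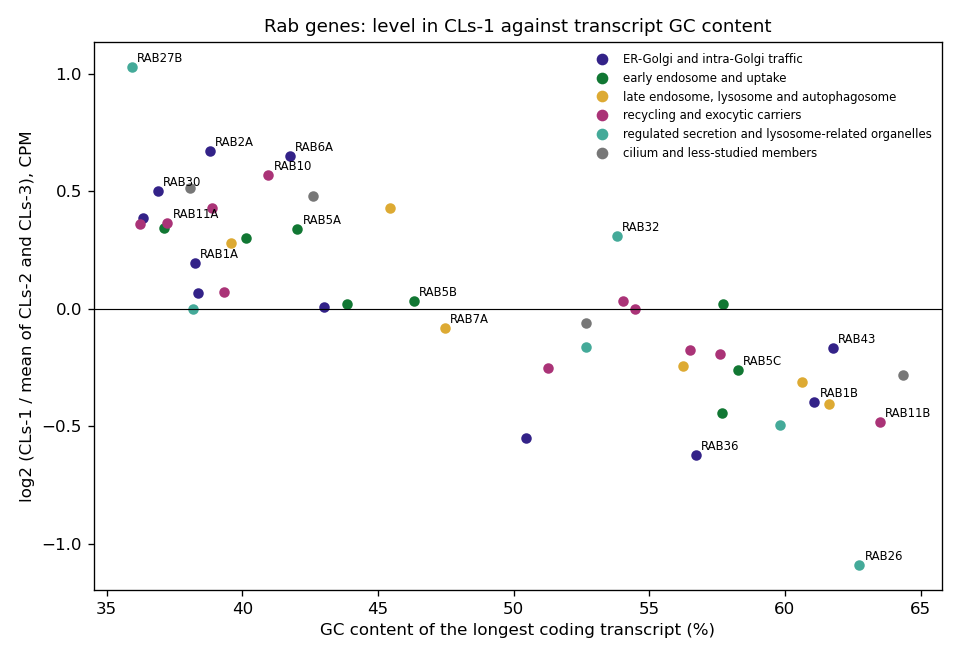
Log2 ratio of the CPM in CLs-1 to the mean of CLs-2 and CLs-3 (vertical axis) against the GC content of the longest coding transcript in percent (horizontal axis). Points are the 46 tested Rab genes, coloured by role. The ratio is above 0 for 22 of the 23 members with the lower GC content and for 3 of the 23 with the higher (r = -0.804).

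When GC content was entered as an offset, an alternative chosen after seeing the data, RAB30 had a log2 fold change of 0.49, RAB27B of 0.69, RAB43 of -0.57 and RAB40C of 0.40. Their adjusted p-values in this fit were 0.370, 0.675, 0.675 and 0.621, and no member passed the criteria.

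The genes for proteins that load, switch and read Rab proteins were compared in the same way. Of 161 listed, 148 were tested and 0 passed the criteria. At an unadjusted p under 0.05, 1 was higher and 4 were lower, where 2.19% and 3.62% of all genes were. Without CLs-1, 1 was higher and 12 were lower of 150 tested, where 3.55% and 5.47% of all genes were. Over the 148, the median log2 fold change was 0.01. For 102 of the 148, the 95% interval lay within a 1.5-fold difference, as it did for 49.1% of all genes, which were not matched for read depth. All 10 genes for GDIs, escort proteins and prenylation were tested. CHM, a Rab escort protein that presents Rab proteins for prenylation, was at 20.4, 23.0 and 17.5 CPM in the control samples and 37.3, 24.1 and 24.5 CPM in the CLs-treated samples. The groups did not overlap, with CLs-1 well above the others. Its log2 fold change was 0.50 (SE 0.20, adjusted p = 0.760), and without CLs-1 it was 0.26. CHML, the other escort protein gene of the list, was at 113.4, 127.7 and 85.3 CPM and at 151.7, 84.0 and 79.4 CPM. The log2 fold change of CHML was -0.05, and -0.41 without CLs-1. RABGGTB, the catalytic subunit of the Rab prenyltransferase, had a log2 fold change of 0.26, and of 0.11 without CLs-1. ICMT, a carboxyl methyltransferase of prenylated proteins, was at -0.12 in both.

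Of 47 GEF genes 43 were tested. None had an unadjusted p under 0.05, where 2.19% of all genes were higher and 3.62% lower. Without CLs-1, 44 were tested, of which 1 was higher and 4 were lower at that threshold, where 3.55% and 5.47% of all genes were. With all 6 samples, the smallest p-values were those of TRAPPC3L and TRAPPC3, subunits of TRAPP, at log2 fold changes of -0.52 (adjusted p = 0.855) and 0.29 (adjusted p = 0.890), and of MON1B, of the RAB7 exchange factor, at -0.31 (adjusted p = 0.890). Of 37 GAP genes 35 were tested. TBC1D2, a GAP for RAB7, was at 63.3, 75.8 and 55.3 CPM and at 49.8, 57.0 and 44.9 CPM. The samples overlapped, with a log2 fold change of -0.36 (adjusted p = 0.832). The GAP genes TBC1D9 and TBC1D4 had log2 fold changes of -0.45 and -0.32.

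Of 67 effector and tether genes 60 were tested, and 3 were lower at an unadjusted p under 0.05, near the 3.62% of all genes. MICALL1, a recycling endosome effector, was at 54.3, 53.8 and 61.8 CPM in the control samples and 41.9, 41.5 and 45.5 CPM in the CLs-treated samples. All CLs-treated samples were below the controls, with a log2 fold change of -0.40 (SE 0.13, adjusted p = 0.527) that was -0.38 without CLs-1. OPTN, an autophagy receptor and RAB8 effector, was at 90.3, 91.5 and 111 CPM and at 66.3, 83.6 and 75.1 CPM (log2 fold change -0.38, -0.30 without CLs-1, adjusted p = 0.701 over all 6 samples). RAB11FIP3, a RAB11 effector, was at 39.4, 40.5 and 45.9 CPM and at 32.7, 36.2 and 31.2 CPM (log2 fold change -0.33, adjusted p = 0.808). Both were below the controls in every CLs-treated sample.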

How the data were processed

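RNA-seq was run on 3 control and 3 CLs-treated samples labelled HepG2, on an Ion Proton sequencer. MapSplice was the authors' aligner, and the deposited values are raw counts of reads per gene symbol. Per the labels, the submitters' processing notes name HTSeq 0.6.1 and hg19. Totals were 11418527 to 13998946 counts per sample, and the floor of 3 counts covers counting error only. No row of the file was left out of library sizes. Because the reference at hand is of another build, no coordinates are given.

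Counts were compared with edgeR 4.0.16 in R 4.3.3 (filterByExpr, TMM, quasi-likelihood F test on condition, Benjamini-Hochberg adjustment over 15047 genes). Standard errors were derived from the F statistic. The script was tested on simulated data. Exon lengths, GC content and sequences came from GENCODE v29 (GRCh38), in which all 60 members had a coding transcript.

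The members, role lists and partner lists were chosen with earlier results of these data known. Genes named were the 12 members with the smallest p, the tested members with the most extreme fold changes, 24 textbook members, the untested members, and up to 3 genes with the smallest p of each partner list. RAB8B, RAB20, RAB23, RAB26, RAB28, RAB36, CHML, the related rows and the members given as examples of a spread were named after their values were seen. Alternatives were DESeq2 1.42.0, other scalings and filters, a block for the replicate number, and leaving out each sample. GC offsets were added after seeing the data. Some items are not reported here.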

Additional observations from a re-analysis of the deposited data

How the results depend on the processing

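No Rab gene or partner gene passed the criteria under any alternative run. Over all genes the number past them was 13, against 107 with DESeq2, 18 with DESeq2's size factors in edgeR, 8 with library size only, 171 without a filter, 8 with at least 30 pooled counts, 68 with the replicate number as a block, and 22 with GC offsets. Leaving out 1 sample moved the number of members at an unadjusted p under 0.05 from 2 to between 1 and 4 (higher, 4 without CLs-3) and from 1 to between 0 and 1 (lower), and that of partner genes from 1 to between 0 and 2 and from 4 to between 1 and 12 (12 without CLs-1). DESeq2 gave 0 lower members. Partner genes that were higher numbered 2 with library size only, without a filter and with GC offsets, and lower ones numbered 2 with library size only. For the main edgeR fit, 2.19% of all genes were higher and 3.62% lower at an unadjusted p under 0.05. Without CLs-1 these shares were 3.55% and 5.47%. They were not computed for the other fits, so the counts of those fits are not read as a result about these genes.

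The sign of some members' log2 fold change turned. The values listed first cover only the members with the smallest p, the most extreme fold changes or a textbook role. With GC offsets the log2 fold changes were -0.068 for RAB1A, -0.051 for RAB4A, -0.069 for RAB6A, -0.0065 for RAB9A and -0.021 for RAB22A. With library size only RAB21 was at 0.00012. Leaving out 1 sample gave -0.056 to 0.075 for RAB1A, -0.15 to 0.075 for RAB1B, -0.011 to 0.37 for RAB2A, -0.0043 to 0.045 for RAB4A, -0.14 to 0.034 for RAB5C, -0.24 to 0.13 for RAB6A, -0.043 to 0.20 for RAB9A, -0.039 to 0.23 for RAB14, -0.15 to 0.065 for RAB21, -0.053 to 0.12 for RAB22A, -0.039 to 0.26 for RAB32 and -0.17 to 0.0059 for RAB34. Outside that choice of members, RAB23 and RAB8B turned with GC offsets, to -0.093 and -0.084. Without CLs-1, RAB20, RAB23, RAB28 and RAB8B turned to -0.0017, -0.18, -0.046 and -0.11. The cause was not tested.

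Same-numbered samples had correlations of deviations of 0.0998, 0.122 and 0.333. The first is just under the limit of 0.1 set for every pair, so the numbers were not taken as a pairing. With the replicate block 0 members passed the criteria, and RAB6A turned to -0.018. The 95% interval lay within a 1.5-fold difference for 26 of the 46 members, and for the others it leaves room for a difference of that size.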
